A study of Homo sapiens with 18 samples.

Results

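PRRX1, SNAI2, TWIST1, FN1, VIM, CD44, COL1A1, S100A6, ANXA1 and LGALS1 are markers of the mesenchymal, substrate-adherent state of neuroblastoma cells. They were taken as a set of 10 genes, of 19775 that the array names singly, with all of their probe sets, which are the 37 probe sets of 54675 on the array that the platform annotation gives with 1 of these symbols. The genes were chosen for the state they mark, with earlier results of these data known. At 6 h 16 of the 37 probe sets, from 8 genes, and at 24 h 19, from the same 8 genes, had a mean log2 signal over the 9 arrays of the time above log2(40), which is 5.32. PRRX1 and ANXA1 were under that threshold at both times.

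SH-SY5Y is a human neuroblastoma line that is used as a dopaminergic neuron-like model after treatment with retinoic acid. According to the labels, the cells of all 18 arrays were differentiated in 10 μM retinoic acid for 7 days, left without it for 24 h, exposed for 30 min to 0, 1 or 5 μM cocaine and retrieved 6 or 24 h after exposure. Each of the 6 groups had 9 dishes, pooled by 3 into RNA for 3 Affymetrix U133 Plus 2.0 arrays. Wording for an untreated control also stands in the labels of the arrays with 5 μM, which were taken at their stated dose. The 3 arrays of a group are called biological replicates in the labels and are numbered 1 to 3, and p-values here measure only the spread between such pools of 1 cell line.

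Neuroblastoma cells in culture can take a sympathetic neuron-like adrenergic state, held by factors such as HAND2 and GATA3, or a mesenchymal state that resembles migrating neural crest and mesenchyme. Mesenchymal cells spread flat and adhere tightly to the dish, build extracellular matrix and depend on factors such as PRRX1, SNAI2 and TWIST1. SH-SY5Y derives by repeated subcloning from a line that held both forms and is usually counted as adrenergic, and retinoic acid, which patterns the neural crest, is known to shift the balance between neuronal and substrate-adherent cells. In RNA of whole dishes, fewer cells of a type and less RNA per cell cannot be told apart.

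VIM, which had the largest difference between doses, and CD44, the surface marker with the most probe sets, are shown by the 250 bases before their annotated starts, from RefSeq on GRCh38.p14. The VIM gene lies at chr10:17228241-17237593 and CD44 at chr11:35139171-35232402. The VIM window is chr10:17227991-17228240 and the CD44 window chr11:35138921-35139170, both on the plus strand and written 5′ to 3′. Capitals mark the motifs that were found among 5 searched on both strands, the GC box GGGCGG, the retinoid receptor half-site AGGTCA, the SNAI2-type E-box CAGGTG, the AP-1 site TGANTCA and the TEAD site GGAATG.

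VIM: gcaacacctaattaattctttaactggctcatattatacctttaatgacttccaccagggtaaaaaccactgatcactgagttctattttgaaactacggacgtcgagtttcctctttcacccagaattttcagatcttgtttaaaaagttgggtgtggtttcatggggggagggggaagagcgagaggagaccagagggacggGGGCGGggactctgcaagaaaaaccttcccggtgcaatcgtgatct

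CD44: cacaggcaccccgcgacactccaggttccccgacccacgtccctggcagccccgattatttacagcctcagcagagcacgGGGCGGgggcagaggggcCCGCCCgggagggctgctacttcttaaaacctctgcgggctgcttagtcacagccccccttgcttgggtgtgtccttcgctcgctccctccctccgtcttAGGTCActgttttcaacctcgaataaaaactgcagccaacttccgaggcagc

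The VIM window held 1 GC box, at -46 from the start, and the CD44 window 2, at -170 and -152, the second of them on the minus strand. CD44 also held 1 half-site of the retinoid receptors, at -52, a sequence found in 12.1% of all 35116 windows of this length. The GC box was in 42.6% of windows, the E-box in 17.5%, the TEAD site in 11.9% and the AP-1 site in 6.57%. Windows were at hand for 6 of the 10 markers (PRRX1, FN1, VIM, CD44, S100A6 and ANXA1), and among the other 4 of these only FN1, with 6, and S100A6, with 3, held a GC box. None of the 6 windows held the E-box, the AP-1 site or the TEAD site, which says only that these letters are not in these 250 bases.

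On the log2 scale, where a difference of 1 is a change of 2-fold, the marker probe sets above the threshold had means of 5.32 to 12.28 at 6 h and of 5.42 to 12.83 at 24 h, and those under it 2.84 to 5.28 and 3.14 to 5.08. Single arrays had medians over all probe sets between 4.96 and 5.01 at 6 h and between 5.30 and 5.35 at 24 h. A signal depends on the probe set as well as on the transcript, so levels of different genes are not ranked, and levels of the 2 times, which were normalized apart, are not compared.

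**Figure D1:**
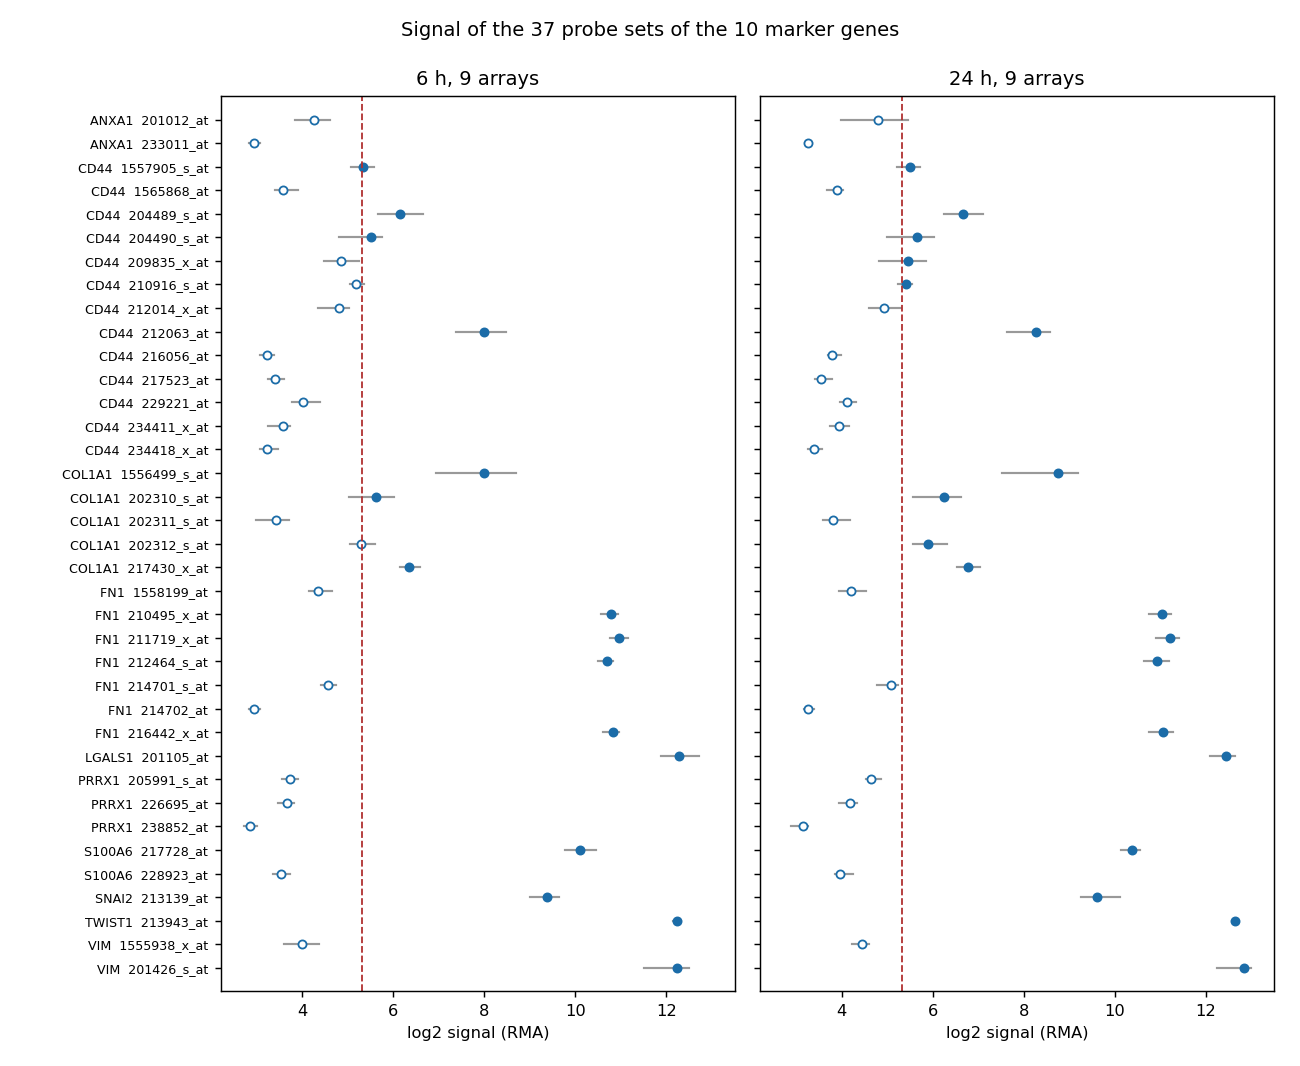
Log2 signal (RMA) of the 37 marker probe sets at 6 h (left) and 24 h (right); dots are means of 9 arrays, filled where above the threshold of 5.32 (dashed line), and lines run from the lowest to the highest array. All 3 probe sets of PRRX1 and both of ANXA1 lie left of the line at both times.

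The markers divided into a detected majority and a pair near the low end of the array. The paired-related homeobox factor PRRX1, which can drive the mesenchymal state when it is forced on, had means of 2.84 to 3.72 at 6 h and of 3.14 to 4.64 at 24 h in its 3 probe sets. The calcium- and lipid-binding annexin ANXA1 had its higher probe set at 4.26 at 6 h and 4.80 at 24 h, with single arrays from 3.85 to 5.47. Its signals at 6 h were 4.05, 4.14 and 3.85 in untreated cells, 4.62, 4.53 and 4.25 with 1 μM and 4.43, 4.34 and 4.12 with 5 μM. The treated array was the higher in 3 of 3 replicate numbers at both doses, and with 5 μM the groups overlapped. With neither a signal filter nor a block its difference was 0.28 with 5 μM and 0.45 with 1 μM (adjusted p in limma 0.304 and 0.268). With the replicate block and no filter it passed at both doses (adjusted p 0.0488 and 0.0579), as 1 of 5 marker probe sets of 37 called with 5 μM, at a background of 8.19% of 42892 probe sets, and the only one with 1 μM, at a background of 1.92%. On these arrays 8 genes of the set were thus detected, PRRX1 and ANXA1 were not, and adrenergic factors were detected beside the 8. The arrays hold no reference cells of either state, so detection does not show that the cells were in the mesenchymal state. GATA3 lay between 12.79 and 13.09 and HAND2 between 7.42 and 7.95 over the 18 arrays, and 20 of the 22 adrenergic markers with a named probe set were above the threshold at both times, TH and INSM1 not among them.

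In the main fits, which had no block for the replicate number, no marker passed the test at either dose or either time. In limma with a Benjamini-Hochberg adjusted p under 0.10, 0 of 16 marker probe sets were called with 5 μM against 0 μM at 6 h, where 2.98% of all 22455 probe sets were called, and 2 (VIM 201426_s_at and COL1A1 217430_x_at) had an unadjusted p under 0.05, as did 17.2% of all. With 1 μM at 6 h, 0 of 16 were called, with the same 2 at an unadjusted p under 0.05, and the share called over all probe sets was 0%. Between 5 and 1 μM at 6 h it was 0 of 16 against 0% of all, with none under an unadjusted 0.05. At 24 h the counts were 0 of 19 for 5 μM (0.0123% of all 24307), for 1 μM (0%) and for 5 against 1 μM (0.00823%), also with none under an unadjusted 0.05.

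The lowest adjusted p of a marker in these limma fits was 0.149 with 5 μM at 6 h, 0.280 with 1 μM at 6 h and 0.709 with 5 μM at 24 h. The median marker difference with 5 μM at 6 h was 0.038, beside -0.016 over all probe sets tested. With 5 μM at 24 h it was 0.015 beside -0.00024. The comparisons with 1 and with 5 μM share the untreated arrays of their time.

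**Figure D2:**
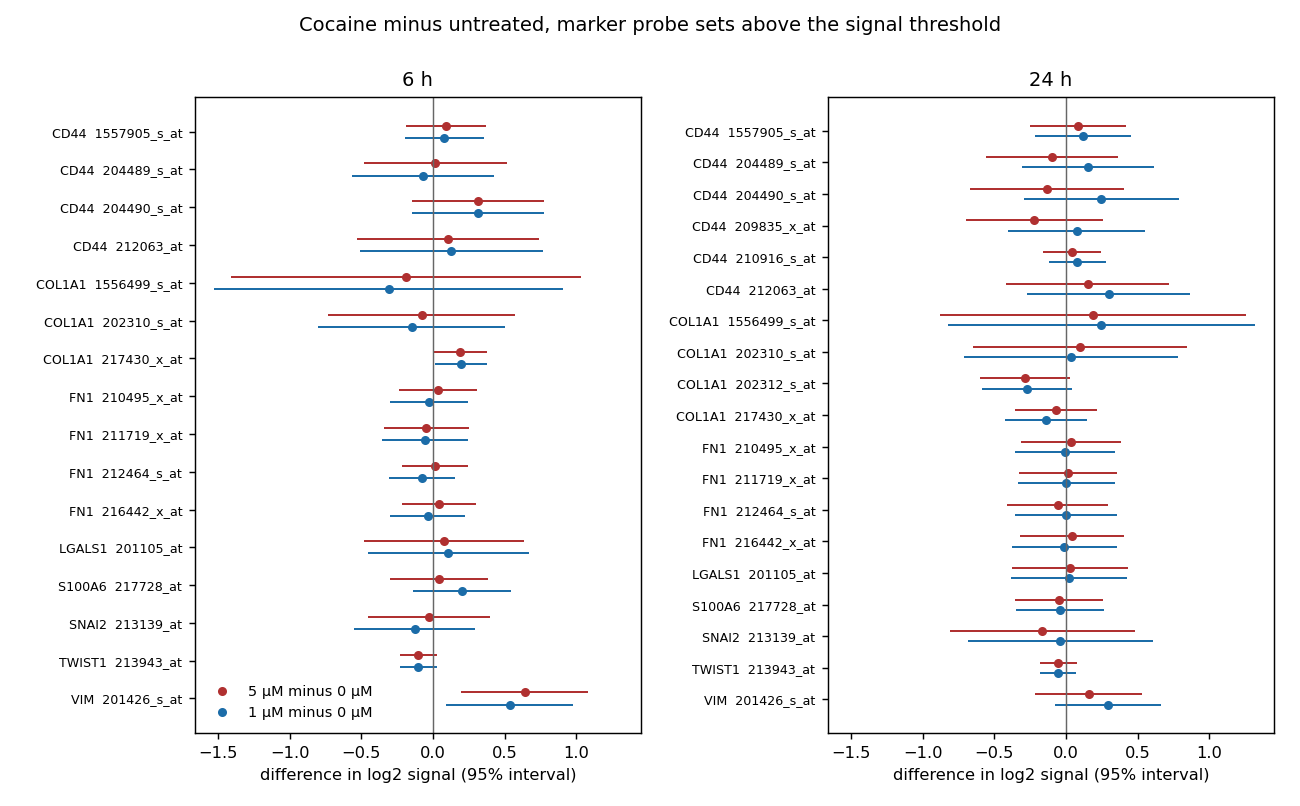
Differences in log2 signal between cocaine-treated and untreated cells for the marker probe sets above the threshold at 6 h (left, 16) and 24 h (right, 19); red is 5 μM and blue 1 μM, dots are differences of means of 3 arrays and lines 95% intervals of the limma fit. VIM at 6 h stands furthest right, and the intervals of COL1A1 1556499_s_at are the widest.

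VIM encodes vimentin, the intermediate filament of mesenchymal cells, and showed the largest marker difference at 6 h. On untreated arrays 1, 2 and 3 its bright probe set 201426_s_at had log2 signals of 12.38, 11.66 and 11.50. With 1 μM they were 12.45, 12.42 and 12.29, and with 5 μM 12.49, 12.49 and 12.49. Untreated arrays 2 and 3 were thus low and array 1 lay close to the treated cells. All 5 μM arrays were above all untreated arrays, whereas the 1 μM arrays overlapped them. The difference was 0.64 with 5 μM (SE 0.19, 95% interval 0.21 to 1.08, adjusted p in limma 0.149) and 0.54 with 1 μM (SE 0.19, adjusted p 0.280), neither past the threshold.

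The replicate numbers pair the arrays, and with the number as a block in the limma fit VIM passed at both doses of 6 h, with an adjusted p of 0.0550 for 5 μM and 0.0982 for 1 μM. It was then the only one of 16 marker probe sets called with 5 μM, at a background of 18.6% of all probe sets, and 1 of 2 called with 1 μM, at a background of 12.5%. The differences within replicate numbers 1, 2 and 3 were 0.11, 0.83 and 0.99 with 5 μM and 0.06, 0.76 and 0.79 with 1 μM. Replicate 1 therefore carried little of the difference. The count of markers called with 5 μM moved to 2, VIM among them, without untreated array 1 (difference 0.91, adjusted p 0.00172), at a background of 10.8% of all probe sets, and VIM was at 0.55 without untreated array 2 and 0.47 without untreated array 3.

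At 24 h vimentin signals were 12.94, 12.86 and 12.26 in untreated cells, 12.99, 12.99 and 12.95 with 1 μM and 12.82, 12.98 and 12.73 with 5 μM. A single untreated array, number 3, was low, and with 5 μM the groups overlapped. The differences were 0.16 with 5 μM (95% interval -0.21 to 0.52, adjusted p in limma 0.896) and 0.29 with 1 μM (adjusted p 1.00), where the groups did not overlap by a narrow margin. The change with 5 μM at 6 h exceeded that at 24 h by 0.48 (SE 0.27), with an adjusted p in limma of 0.427. The second VIM probe set, 1555938_x_at, was under the threshold with single arrays from 3.59 to 4.60. It was higher by 0.41 with 5 μM at 6 h and passed with the replicate block and no filter (adjusted p in limma 0.0951, and 0.167 without the block).

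The same untreated arrays stood apart in retinoic acid-responsive genes. CYP26A1, a retinoic acid-degrading enzyme that retinoic acid itself induces, gave log2 signals of 5.01, 10.69 and 10.99 for untreated arrays 1, 2 and 3 of 6 h, whereas the 6 treated arrays lay between 4.95 and 5.61. At 24 h it had 5.40, 6.04 and 9.55 on the untreated arrays and 4.92 to 6.31 on the treated ones. The arrays with high CYP26A1, untreated 2 and 3 of 6 h and untreated 3 of 24 h, were the arrays with low VIM. The labels give every array the same time without retinoic acid, and whether the dishes of these 3 arrays had it like the others was not tested. CYP26B1, DHRS3 and RARB had their 2 highest arrays of 6 h and their highest of 24 h in the same places.

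With untreated arrays 2 and 3 of 6 h left out, a step chosen after their CYP26A1 signals were seen, the VIM difference was 0.11 with 5 μM (adjusted p in limma 0.629) and 0.0042 with 1 μM (adjusted p 0.994). A single untreated array then remained and was assumed to vary like the others. No probe set of 22455 passed with 5 μM in that limma fit, in which 2877 had an unadjusted p under 0.05. The 3′ minus 5′ difference of the ACTB control probe sets was 0.55, 1.12 and 0.89 on the untreated arrays of 6 h, and with 5 μM it lay between 0.49 and 0.54. That of GAPDH was 0.25, 0.21 and 0.23 on the untreated arrays of 6 h and lay between 0.19 and 0.24 with 5 μM. For the spiked-in hybridization controls, the bioD minus cre difference was -1.11 to -1.02 on untreated and -1.64 to -1.50 on treated arrays of 6 h. With 0, 1 and 5 μM at 6 h, bioB minus cre had means of -5.31, -5.27 and -5.33. Those of bioC minus cre were -3.81, -3.77 and -3.79. The part of any of these in the VIM difference was not tested.

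**Figure D3:**
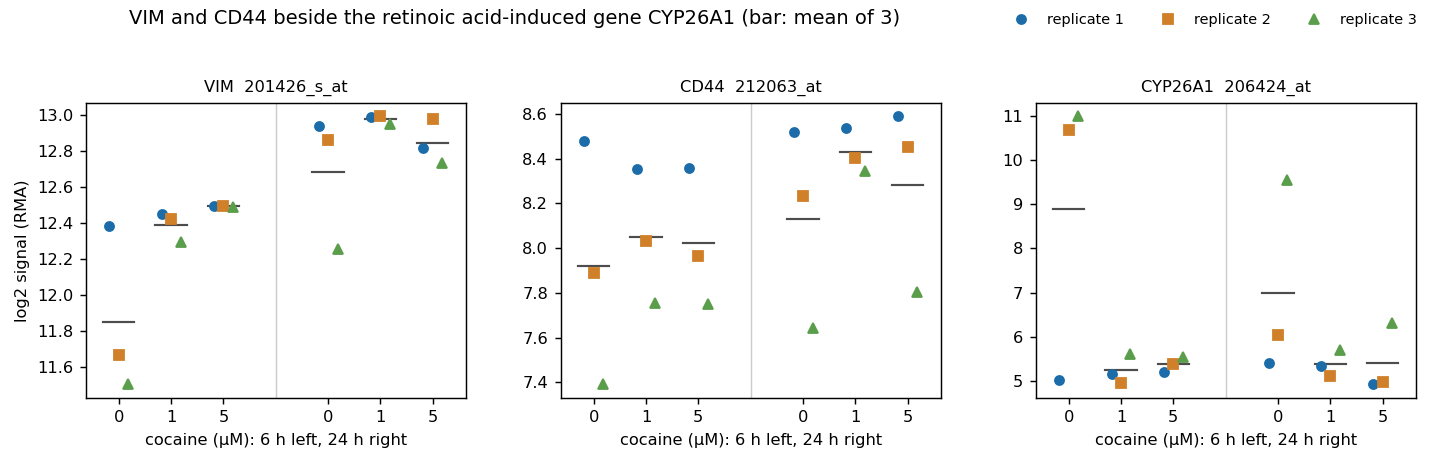
Log2 signal (RMA) of VIM, CD44 and the retinoic acid-induced CYP26A1 on every array by cocaine dose, 6 h left and 24 h right of the line in each panel; symbols are replicate numbers and bars means of 3 arrays. Untreated arrays 2 and 3 of 6 h and 3 of 24 h are low for VIM and high for CYP26A1.

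CD44, the hyaluronan receptor, is an adhesion molecule of mesenchymal and stem-like cells. Of its 13 probe sets 4 were above the threshold at 6 h and 6 at 24 h, the brightest being 212063_at. Its signals at 6 h were 8.48, 7.89 and 7.39 in untreated cells, 8.36, 8.03 and 7.76 with 1 μM and 8.36, 7.97 and 7.75 with 5 μM. In each of the 3 doses array 1 was highest and array 3 lowest, and the doses overlapped. The difference with 5 μM was 0.11 (SE 0.28, 95% interval -0.52 to 0.74, adjusted p in limma 0.880), and within replicate numbers it was -0.12, 0.08 and 0.36.

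At 24 h the brightest CD44 probe set had 8.52, 8.23 and 7.64 in untreated cells, 8.54, 8.40 and 8.35 with 1 μM and 8.59, 8.45 and 7.80 with 5 μM. Array 3 was again the lowest in each dose, though with 1 μM by little. The differences were 0.15 with 5 μM (adjusted p in limma 0.953) and 0.30 with 1 μM (adjusted p 1.00). The dimmer 1557905_s_at had a difference with 5 μM at 6 h of 0.09 (adjusted p in limma 0.734), which became 0.24 and passed (adjusted p 0.0861) without untreated array 1. With untreated arrays 2 and 3 left out it was -0.21 (adjusted p in limma 0.401), the opposite direction, and that of 212063_at was -0.45 (adjusted p 0.558). The probe set 229221_at, under the threshold, was higher by 0.31 with 5 μM at 6 h and passed with the replicate block and no filter (adjusted p in limma 0.0400, and 0.212 without the block).

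TWIST1 and SNAI2 are the transcription factors of the set that were detected. TWIST1 (chr7:19113047-19117636), a basic helix-loop-helix factor of neural crest and mesoderm, had the smallest spread of the brightest probe sets. Its signals at 6 h were 12.33, 12.32 and 12.26 in untreated cells, 12.22, 12.22 and 12.16 with 1 μM and 12.25, 12.14 and 12.21 with 5 μM. The untreated arrays lay above all treated arrays by a narrow margin. The difference was -0.10 at both doses (SE 0.053, 95% interval with 5 μM -0.22 to 0.02, adjusted p in limma 0.362 and 0.418), under the threshold also with the replicate block (0.187 and 0.209). At 24 h the arrays were at 12.64, 12.72 and 12.70 untreated, 12.61, 12.67 and 12.61 with 1 μM and 12.58, 12.68 and 12.64 with 5 μM. The treated arrays had the lower value in 3 of 3 replicate numbers at both doses and both times, with differences from -0.18 to -0.03.

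SNAI2, the zinc-finger repressor Slug that marks delaminating neural crest, varied more by replicate number than by dose. At 6 h its signals were 9.11, 9.54 and 9.64 in untreated cells, 9.00, 9.43 and 9.48 with 1 μM and 9.13, 9.51 and 9.56 with 5 μM. At 24 h they were 9.48, 9.48 and 10.11, then 9.48, 9.35 and 10.12, then 9.27, 9.26 and 10.04. Array 1 was the lowest in each dose of 6 h and array 3 the highest in each dose of both times. The differences with 5 μM were -0.03 at 6 h (95% interval -0.44 to 0.39, adjusted p in limma 0.955) and -0.17 at 24 h (-0.81 to 0.47, adjusted p 0.957). Within replicate numbers 1, 2 and 3 the treated array was the lower in 3 of 3 with 5 μM at 24 h, with differences of -0.21, -0.22 and -0.07, and with 1 μM at 6 h, with -0.11, -0.11 and -0.16. With the replicate block neither passed (adjusted p in limma 0.234 and 0.118).

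**Figure D4:**
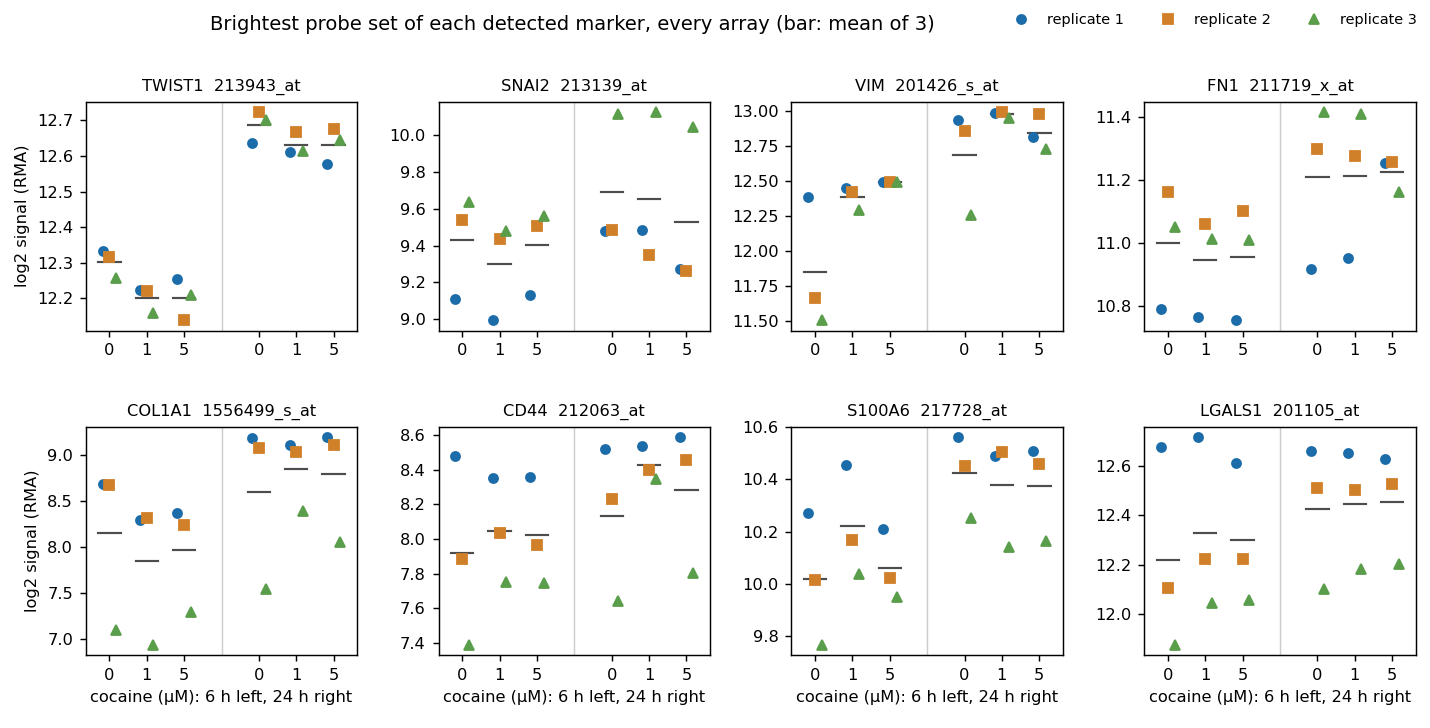
Log2 signal (RMA) of the brightest probe set of each of the 8 detected markers on all 18 arrays by cocaine dose, 6 h left and 24 h right of the line in each panel; symbols are replicate numbers and bars means of 3 arrays, and each panel has its own axis. LGALS1 is highest on array 1 and lowest on array 3 at every dose, and COL1A1 is lowest on array 3.

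Fibronectin and type I collagen stand for the matrix that substrate-adherent cells lay down. FN1 had 4 bright probe sets. The brightest, 211719_x_at, was at 10.79, 11.16 and 11.05 in untreated cells of 6 h, 10.77, 11.06 and 11.01 with 1 μM and 10.75, 11.10 and 11.01 with 5 μM. Array 1 was the lowest at each dose. At 24 h it was at 10.92, 11.30 and 11.41 untreated, 10.95, 11.28 and 11.41 with 1 μM and 11.25, 11.26 and 11.16 with 5 μM, so that array 1 was low in all but the 5 μM cells. In those cells array 1 was the highest in 210495_x_at and 216442_x_at and the lowest in 212464_s_at. The differences with 5 μM were -0.05 at 6 h (SE 0.13, adjusted p in limma 0.889) and 0.01 at 24 h (SE 0.15, adjusted p 0.996).

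COL1A1 (chr17:50184101-50201631), which encodes a chain of type I collagen, varied most among the brightest probe sets. The probe set 1556499_s_at was at 8.69, 8.67 and 7.10 in untreated cells of 6 h, 8.29, 8.31 and 6.93 with 1 μM and 8.37, 8.24 and 7.28 with 5 μM. At 24 h it was at 9.19, 9.08 and 7.54, then 9.11, 9.04 and 8.40, then 9.20, 9.12 and 8.06. Array 3 was the lowest of its group in all 6 groups. The differences with 5 μM were -0.19 at 6 h (95% interval -1.40 to 1.02, adjusted p in limma 0.891) and 0.19 at 24 h (-0.87 to 1.25, adjusted p 0.978).

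The COL1A1 probe sets did not agree in direction. The dimmer 217430_x_at had signals of 6.30, 6.22 and 6.15 in untreated cells of 6 h, and of 6.38, 6.44 and 6.43 with 5 μM. All 5 μM arrays were above the untreated ones, by a mean of 0.19 (SE 0.078, adjusted p in limma 0.260). Another, 202312_s_at, was at 5.28, 5.59 and 5.55 untreated and 5.09, 5.04 and 5.15 with 5 μM, and its mean over the 9 arrays of 6 h, 5.28, was just under the threshold. With no signal filter it was the only marker probe set of 37 called in that comparison, with a difference of -0.38 (adjusted p in limma 0.0909), at a background of 1.59% of 42892 probe sets. It was also among the 5 called with the replicate block and no filter, with an adjusted p of 0.0491 in limma, beside CD44 229221_at, ANXA1 201012_at and both VIM probe sets (201426_s_at at 0.0707).

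S100A6 and LGALS1 encode small proteins that are plentiful in spreading and migrating cells, the calcium-binding calcyclin and the β-galactoside-binding galectin-1. LGALS1 was at 12.67, 12.11 and 11.88 in untreated cells of 6 h, 12.72, 12.22 and 12.04 with 1 μM and 12.61, 12.22 and 12.06 with 5 μM. At 24 h it was at 12.66, 12.51 and 12.10, then 12.65, 12.50 and 12.18, then 12.63, 12.53 and 12.20. Array 1 was highest and array 3 lowest in all 6 groups. The differences with 5 μM were 0.08 at 6 h (95% interval -0.48 to 0.63, adjusted p in limma 0.902) and 0.03 at 24 h (-0.37 to 0.43, adjusted p 0.991).

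S100A6 was at 10.27, 10.02 and 9.77 in untreated cells of 6 h, 10.46, 10.17 and 10.04 with 1 μM and 10.21, 10.02 and 9.95 with 5 μM. Array 1 was highest and array 3 lowest within each dose of 6 h, and the groups overlapped. The difference with 1 μM was 0.20 (SE 0.15, adjusted p in limma 0.561), and it passed with the replicate block (adjusted p 0.0848), as the second marker called there. With untreated arrays 2 and 3 left out the difference with 1 μM was -0.05 (adjusted p in limma 0.935), the opposite direction. With 5 μM it was 0.04 (adjusted p in limma 0.915). At 24 h S100A6 was at 10.56, 10.45 and 10.25 untreated, 10.49, 10.51 and 10.14 with 1 μM and 10.51, 10.46 and 10.16 with 5 μM, and the difference with 5 μM was -0.05 (95% interval -0.35 to 0.25).

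Groups that did not overlap were counted over the markers and over the array as a whole. With 5 μM at 6 h the groups were apart in 3 of 16 marker probe sets (VIM 201426_s_at, TWIST1 and COL1A1 217430_x_at) and in 21.2% of all probe sets. With 1 μM at 6 h it was 2 of 16 (TWIST1 and COL1A1 217430_x_at) against 17.4%. At 24 h it was 0 of 19 with 5 μM against 10.5%, and 1 of 19 (VIM 201426_s_at) with 1 μM against 7.20%. These shares are given as a description, without a test.

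Replicate number, shared by the doses, accounted for most of the spread of the markers. In a division of the sum of squares over the 9 arrays of 6 h, the median share of the replicate number was 87.8% over the 16 marker probe sets and 35.5% over all 22455, and the median share of dose 6.17% and 31.6%. At 24 h the replicate number took 55.8% over 19 marker probe sets and 41.0% over all 24307, and dose 8.23% and 21.1%. The share of the replicate number was above that of dose in 13 of 16 marker probe sets at 6 h, where it was so in 52.3% of all, and in 18 of 19 at 24 h, where it was so in 63.9%. VIM 201426_s_at, TWIST1 and COL1A1 217430_x_at were the 3 exceptions at 6 h, with 61.1%, 62.4% and 57.7% of their spread by dose, and COL1A1 202312_s_at the exception at 24 h. The probe sets of a gene share transcripts, so the counts are not of independent measurements, and no test was made.

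**Figure D5:**
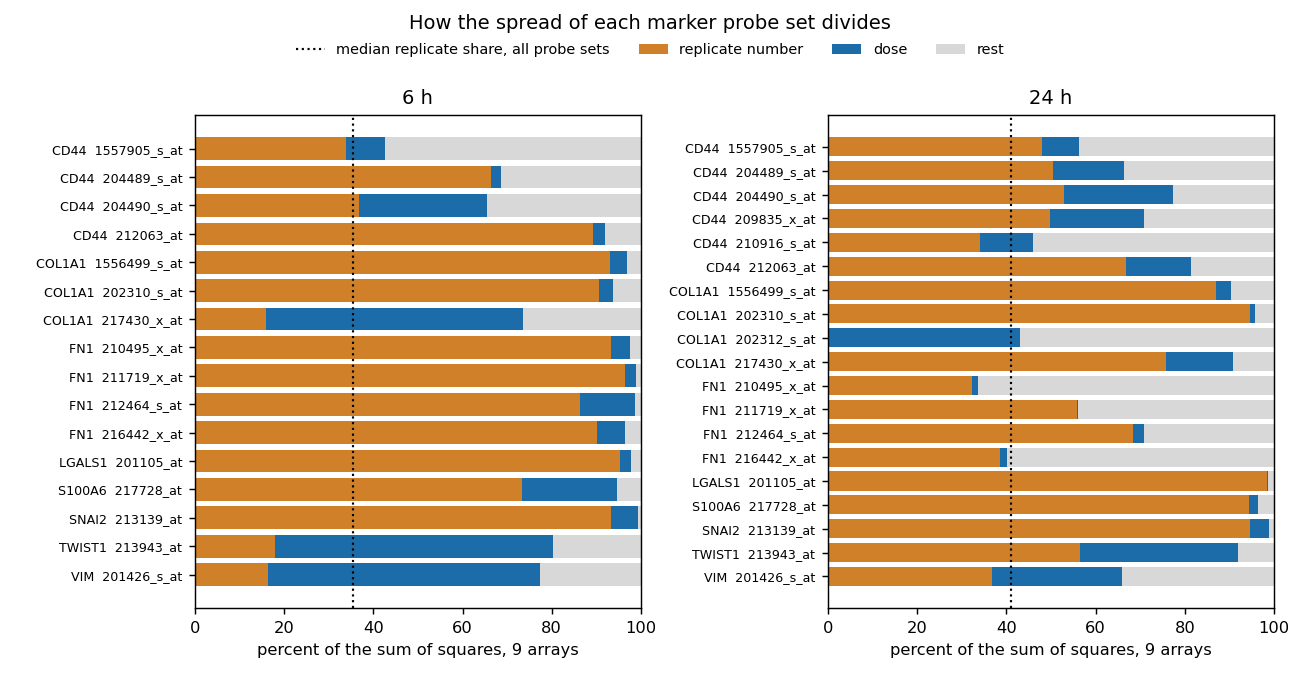
Percent of the sum of squares over 9 arrays that goes with the replicate number (orange), the dose (blue) and the rest (grey), for the marker probe sets above the threshold at 6 h (left, 16) and 24 h (right, 19); the dotted line is the median replicate share over all probe sets, 35.5% and 41.0%. LGALS1, SNAI2 and FN1 at 6 h are nearly all orange, VIM and TWIST1 mostly blue.

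Directions by replicate number were not the same for all markers. The brightest probe sets of LGALS1, S100A6, CD44, COL1A1 and VIM had their lowest mean over the doses on array 3 at both times. The replicate means of LGALS1 spanned 0.67 at 6 h and 0.48 at 24 h. SNAI2 and FN1 were lowest on array 1 at 6 h, and the replicate means of SNAI2 spanned 0.48 and 0.73. Those of COL1A1 1556499_s_at spanned 1.35 and 1.17, and those of VIM 201426_s_at 0.34 and 0.30.

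Genes outside the set followed the most variable markers across the 18 arrays. Over values centred on the mean of their time, and among 11910 genes at their brightest probe set, COL1A1 was followed most closely by BTN3A2 (Pearson's r 0.98), the basement membrane collagen COL4A2 (0.95) and the matrix glycoprotein SPARC (0.95). CD44 was followed by the peptide-amidating enzyme PAM (0.96), FLRT3 (0.95) and TMEM100 (0.95). VIM was followed by EVA1A (0.94), the chemokine receptor CXCR4 (0.94) and the calcineurin subunit PPP3CA (0.92). These are descriptions over arrays that share replicate numbers and the same few untreated arrays, and they carry no p.

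Other genes of the mesenchymal state were tested at their brightest probe set. Of 21 further regulators 10 were above the threshold at 6 h, of 22 matrix genes 18, and of 32 surface and cytoskeleton genes 25. Among those under it at both times were YAP1, TWIST2, POSTN, CAV1 and the type I collagen gene COL1A2. With 5 μM at 6 h 0 of these were called in limma, where 2.98% of all probe sets were called, dimmer ones included. In a limma fit of 1 probe set per gene 0.804% of 11943 were called. The median differences of these lists were -0.04, 0.05 and 0.09 against -0.03 over 11943 genes. The smallest p among them were those of FOSL2, an AP-1 subunit (0.48, adjusted p 0.195), the small calcium-binding protein S100A16 (0.26, adjusted p 0.201) and COL6A3, a chain of type VI collagen (0.29, adjusted p 0.209). The matrix-associated CCN1 (0.59), CCN2 (0.61) and the collagen cross-linking oxidase LOX (0.70) had larger differences, with adjusted p of 0.325, 0.532 and 0.415. The receptors TGFBR2 (0.48), IL6ST (-0.42) and PDGFRB (-0.41) had adjusted p of 0.262 to 0.273, and SNAI1 (-0.24), NOTCH2 (-0.35) and WWTR1 (0.30) of 0.341 to 0.533.

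At dimmer probe sets 3 of these genes rose with 5 μM at 6 h, ZEB1 by 0.49, the transcriptional coactivator WWTR1 by 0.46 and the actin-binding caldesmon CALD1 by 0.58, with adjusted p in limma of 0.0610, 0.0830 and 0.0568. The brightest ZEB1 probe set did not rise, with 10.55, 10.49 and 10.49 in untreated cells of 6 h and 10.36, 10.49 and 10.48 with 5 μM. Those of WWTR1 and CALD1 were higher with 5 μM. The 3 dimmer probe sets were named after their values were seen. With untreated arrays 2 and 3 left out their differences were 0.36, 0.36 and 0.62, with adjusted p of 0.305, 0.342 and 0.257 in a limma fit that called no probe set. With the replicate block the calls of the brightest probe sets were 1 higher (WWTR1) and 1 lower (SNAI1) of 10 regulators. Of 18 matrix genes 5 were higher (TIMP1, CCN1, CCN2, LOX and COL6A3) and 0 lower, and of 25 surface and cytoskeleton genes 5 were higher and 5 lower. The background was 18.6% of all probe sets, dimmer ones included. The higher ones of the last list were CALD1, LGALS3, THY1, TAGLN and S100A16 and the lower ones IL6ST, PDGFRA, DDR2, PDGFRB and ENG. The IL6ST probe sets did not agree in direction in that fit. A dimmer one was called higher, with a difference of 0.49 (adjusted p in limma 0.0902), and another dimmer one lower, with -0.38 (adjusted p 0.0270). With 5 μM at 24 h none of the 3 lists had a call in either fit.

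Markers of the adrenergic state and of other cell types were tested in the same way. Of 20 adrenergic genes above the threshold at 6 h 1 was called with 5 μM in limma, beside 2.98% of all probe sets. It was TFAP2B, which rose by 0.25 (adjusted p in limma 0.0862). The sympathetic factor PHOX2A (-0.52) and the receptor RET (-0.28) had adjusted p in limma of 0.123 and 0.195. With the replicate block 1 was higher (TFAP2B) and 5 were lower (GATA2, PHOX2A, GAP43, CHGA and DBH), at a background of 18.6% of all probe sets. Counted at any probe set, 3 genes were higher, GATA3 and KLF7 added, and 9 lower, RET, ELAVL4, NEFL and MYCN added. The share of all genes called at any probe set was not computed, so this count has no matching background. The 18.6% is a share of single probe sets. Of 10 Schwann and crest glial markers 4 and of 7 epithelial markers 2 were above the threshold at 6 h, with 0 called in either fit. The 4 were SOX9 at 6.70, ERBB3 at 6.49, NGFR at 5.98 and SOX10 at 5.48. The 2 were KRT18 at 9.08 and KRT8 at 5.55. Among those not above it were CDH1 at 3.71 and S100B at 4.01. All 9 retinoic acid-responsive genes above the threshold were lower with 5 μM than untreated at 6 h, with a median of -0.79. In limma 0 were called, and 7 of 9 were called lower with the replicate block. Untreated array 1 lay within the treated arrays for CYP26A1 (5.01, treated 4.95 to 5.61) and CYP26B1 (8.48, treated 8.35 to 8.63). It did so for DHRS3 too, whereas for RARB it was higher (8.41, treated 7.88 to 8.32). The part of untreated arrays 2 and 3 in the difference of the whole list was not tested. With untreated arrays 2 and 3 left out TFAP2B was higher by 0.19 with 5 μM (adjusted p in limma 0.358).

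The change with 5 μM at 6 h was set against that at 24 h over the 16 marker probe sets above the threshold at both times. In limma 0 of 16 differed, with 4.21% of all 22358 probe sets called and none of the 16 at an unadjusted p under 0.05. With the replicate block 1 did, COL1A1 217430_x_at, at a background of 15.9%. Its difference of changes was 0.26 (SE 0.15, adjusted p in limma 0.449 without the block and 0.0940 with it). At 24 h this probe set had signals of 7.04, 6.66 and 6.86 without cocaine and of 6.94, 6.63 and 6.78 with 5 μM, lower in each replicate number where it was higher at 6 h. With arrays this few, the intervals bound the change of most markers rather than show that there was none, and at 6 h the 95% interval of 5 against 0 μM lay within 1 unit in 14 of the 16 marker probe sets.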

How the data were processed

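RNA of SH-SY5Y cells was hybridized to 18 arrays, 3 for each of 3 doses at 6 h and 3 for each at 24 h. The deposited values are log2 signals that the authors computed by RMA in the affy library, with each time normalized on its own. Versions of RMA and of the authors' limma are not given in the sources used here. The deposited table had not been filtered.

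Symbols came from the platform annotation, updated through Entrez IDs with RefSeq (GRCh38.p14), where 41037 probe sets were found. Of 54675 probe sets 41091 had 1 symbol, 1801 several and 11783 none here, and control probe sets were not tested. All probe sets with 1 member symbol were described. Of each other list up to 4 genes with the smallest p of 5 against 0 μM at 6 h were to be named. Some others, such as those called in a fit, were named after their values were seen. For the 3 markers with the largest SD, the 3 genes most correlated with each were named. Members and lists were chosen with earlier results of these data known.

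Probe sets with a symbol whose 9 arrays of a time averaged above log2(40) were kept, as in the study's methods. Doses were compared with limma 3.58.1 in R 4.3.3 (lmFit and eBayes on the 9 arrays of a time, Benjamini-Hochberg adjusted p under 0.10), and the times by a contrast over 18 arrays. Values were described in Python 3.11.15 with pandas 2.3.3 and numpy 2.4.6 and drawn with matplotlib 3.10.9. The fit without a block was tested on simulated data with independent noise on each array. These data held no replicate effect, so that test does not bear on the calls with the replicate block. Deviations from the group means of arrays with the same replicate number correlated at 0.377 to 0.768 at 6 h and 0.424 to 0.733 at 24 h (9 pairs each), and those of different numbers at -0.632 to 0.0711 and -0.575 to 0.165, so the numbers were taken to pair the arrays. The number of arrays limits the precision.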

Additional observations from a re-analysis of the deposited data

Results flagged for a closer look

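The change of COL1A1 217430_x_at from 0 to 5 μM at 6 h minus that at 24 h was 0.26 on the log2 scale, with an adjusted p of 0.0940 in limma with the replicate block and 0.449 without it. It stands here because the test of the difference between the times passed with the block. The brightest COL1A1 probe set, 1556499_s_at, had a difference of changes of -0.38, with an adjusted p of 0.308 with the block. No cause was tested.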

How the results depend on the processing

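The main limma fits called 0 marker probe sets in each of 7 comparisons. With 5 against 0 μM at 6 h the count was 1 with the replicate block, 1 with all 18 arrays in the fit, 1 with no signal filter and 2 with array weights, and 0 to 2 when single arrays were left out. The calls were VIM 201426_s_at with the block, all 18 arrays, array weights and untreated array 1 left out, COL1A1 202312_s_at with no filter, COL1A1 217430_x_at with array weights and CD44 1557905_s_at without untreated array 1. Over all probe sets these fits called 18.6%, 6.4%, 1.59%, 14.7% and, without untreated array 1, 10.8%. With 1 against 0 μM at 6 h the count was 2 with the replicate block (VIM and S100A6), 1 with array weights (VIM) and 0 to 1 with single arrays left out (VIM without untreated array 1), where 12.5%, 4.49% and 4.28% of all probe sets were called. For the change at 6 h against that at 24 h it was 1 with the replicate block (COL1A1 217430_x_at), 1 with array weights (VIM) and 0 to 1 with single arrays left out (VIM without untreated array 1 of 6 h), at 15.9%, 7.81% and 6.07% of all. The cause was not tested. The other 4 comparisons kept a count of 0 under every alternative run, which also covered median centring, quantile normalization, a filter at log2(100), unnamed probe sets added, only the 6 arrays of a comparison, an intensity trend, an adjusted p under 0.05 and 1 probe set per gene. With untreated arrays 2 and 3 of 6 h left out, 3 values that passed elsewhere had the opposite sign, S100A6 with 1 μM at 6 h (-0.05), CD44 1557905_s_at with 5 μM at 6 h (-0.21) and the change of VIM 201426_s_at at 6 h against that at 24 h (-0.05). The CD44 value was also below 0 without untreated array 3, and no other value that passed turned in sign. Leaving out untreated arrays 2 and 3 of 6 h, and the block without a filter, were chosen after seeing the data. Signals near the threshold, as for the dimmer CD44 and COL1A1 probe sets, are close to the background of the array.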
